A study of Mus musculus with 8 samples.

Results

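The genes described here are S100a5 and 5 genes used as markers of the olfactory bulb and its input, namely Eomes, Tbx21, Doc2g, Cdhr1 (named Pcdh21 on the array) and Omp. They were chosen by their PACAP38 over saline ratios on these same arrays, so their values are a description and carry no test. All features of the array that are no control and bear one of these gene names were taken. This gave 7 features for the 6 genes, of 41174 features in all, since Doc2g is measured by 2 different probes and each of the other genes by 1.

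Transcription was measured in the brain of male C57BL/6J mice of 8 to 12 weeks of age, with no genetic change in any group. The mice had either a sham operation or a permanent middle cerebral artery occlusion (PMCAO), in which a filament is left in the artery to cut off blood flow to one side of the forebrain. Each animal then received 1 µl of saline into a cerebral ventricle, either plain or with 1 pmol of PACAP38, a neuropeptide that acts on G protein-coupled receptors and is studied as a protective agent in stroke. The right hemisphere, ipsilateral to the occlusion, was taken at 6 h or 24 h. By the methods of the study, hemispheres were taken without olfactory bulb and cerebellum, and only PMCAO mice with a neurological grade of 1 or 2 were used. Each of the 8 groups (sham or PMCAO, saline or PACAP38, 6 h or 24 h) was 1 pool of RNA from 3 mice, so no value here has an error between mice. PACAP38 and saline of one operation and time were compared on 2 dye-swapped arrays of the same pools, one with PACAP38 in Cy5 and one with PACAP38 in Cy3, and the half-difference of the 2 arrays is given as the technical error.

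Odorants are detected by olfactory sensory neurons of the nose, whose axons end in the glomeruli of the olfactory bulb. There they meet the mitral and tufted cells, the output neurons of the bulb, and the periglomerular interneurons. Omp, the olfactory marker protein, is abundant in mature sensory neurons. S100a5 is a calcium-binding protein of the S100 family that is known from the same neurons. Eomes (Tbr2) and Tbx21 (T-bet) are T-box transcription factors of mitral and tufted cells, and both are also known from T and natural killer lymphocytes. Doc2g is a protein with C2 domains related to the regulators of vesicle release Doc2a and Doc2b. Cdhr1 is a cadherin-like protein of mitral and tufted cells and of photoreceptors.

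The probe sequences show what was measured for the genes with the largest ratio, for the bulb gene with a pair of probes, and for the marker that was near background. They are the 60 bases of each probe as the array files give them, 5′ to 3′ and in lower case throughout, on mouse build mm7.
S100a5 (chr3:90741771-90741830, plus strand): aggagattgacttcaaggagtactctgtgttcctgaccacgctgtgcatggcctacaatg
Doc2g, first probe (chr19:3899405-3899578, plus strand): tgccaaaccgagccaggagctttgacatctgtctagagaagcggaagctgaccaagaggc
Doc2g, second probe (chr19:3901192-3901363, plus strand): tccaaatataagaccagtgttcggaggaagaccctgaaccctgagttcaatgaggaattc
Omp (chr7:94176839-94176898, minus strand): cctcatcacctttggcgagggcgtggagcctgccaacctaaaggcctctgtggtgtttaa
The Doc2g probes cover 174 and 172 bases of the genome with 60 bases of probe, so each of them has a gap when it is placed on the genome, and they do not overlap. The other probes lie without a gap on chromosome 9 (Eomes), chromosome 11 (Tbx21) and chromosome 14 (Cdhr1).

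Across the series, the 6 h arrays shared a slide and the 24 h arrays shared another, scanned on different instruments, and the effect of time cannot be told apart from that of the slide. The median processed Cy3 signal ranged from 62.0 to 70.1 on the 6 h slide and from 131 to 146 on the 24 h slide. One array stood apart, the sham 6 h array with PACAP38 in Cy3, on which 10.7% of the spots were marked as outliers against 0.323% to 3.09% on the others. None of the 7 features was marked on any array. Genes of the acute response to ischemia followed the PMCAO label. With saline at 24 h, 11 of 11 were over 1.5-fold in PMCAO against sham, where 9.10% of all features were. That list was chosen with earlier results of these data known, so it is no independent check of the label. Of the forebrain neuron markers, 10 of 10 were well above background in at least 1 channel. So were 12 of 12 cerebellar genes, from a region left out at dissection, so this count does not check the tissue label.

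S100a5 showed opposite ratios at 24 h in the sham and PMCAO hemispheres. In sham mice at 24 h its processed signal was 54.7 with saline and 244 with PACAP38 on one array, and 91.1 and 254 on the other. In PMCAO mice at 24 h the signal was 899 with saline and 55.5 with PACAP38 on one array, and 1021 and 36.0 on the other. The saline and PACAP38 signals did not overlap in either operation, and their order was turned. At 6 h in PMCAO mice the signal was 153 with saline and 487 with PACAP38 on one array, and 189 and 558 on the other, so PACAP38 was the higher on both. In sham mice at 6 h the signals were 30.4 and 583 on one array and 165 and 292 on the other. The saline signal of 30.4 was not well above background, and it was on the array with PACAP38 in Cy5.

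**Figure D1:**
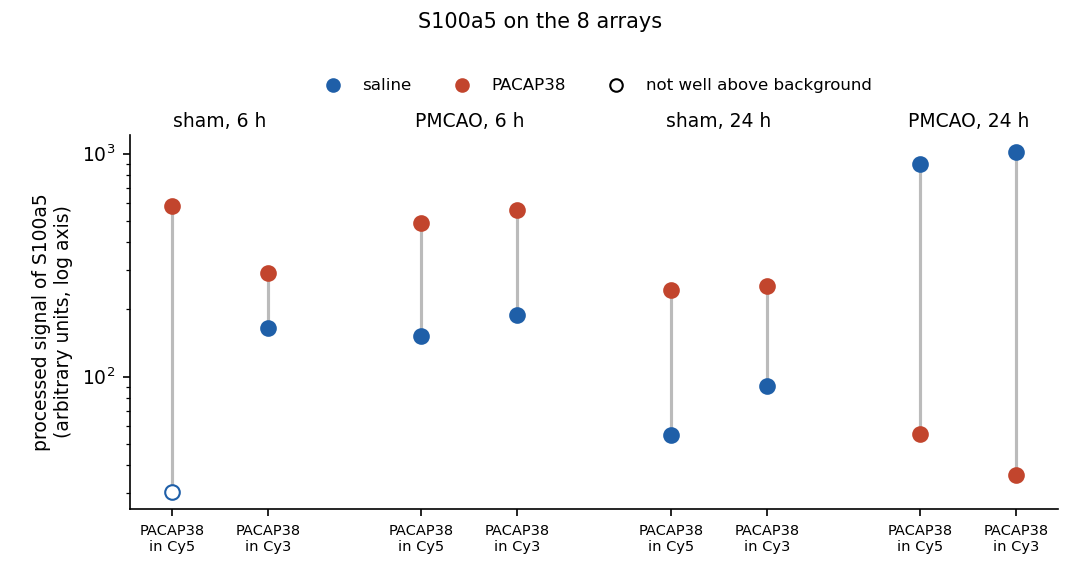
Processed signal of S100a5 (log axis, arbitrary units) in the saline and PACAP38 channels of each of the 8 arrays, where a line joins the channels of one array and an open circle is a signal not well above background. PACAP38 is above saline on 6 arrays and far below it on both PMCAO 24 h arrays, where saline lies at 899 and 1021.

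Expressed as a log2 ratio of PACAP38 over saline, S100a5 was at 1.82 ± 0.34 in sham at 24 h (half-difference of the 2 arrays, 3.53-fold), the 2nd highest of 27906 features that could be ranked. Features were ranked where both groups were well above background on at least 1 array. In PMCAO at 24 h it was at −4.42 ± 0.40, a PACAP38 level 0.0467 times that of saline (0.104 times with normexp) and the 4th lowest ratio of 27853 features. In PMCAO at 6 h the log2 ratio was 1.62 ± 0.06 (3.07-fold), the 16th highest of 28663 features. In sham at 6 h it was 2.54 ± 1.72 (5.83-fold), with 4.26 on one array and 0.82 on the other. That mean was the highest of 24348 features, but with a background model that adds an offset to dim signals (normexp) the log2 ratio was 0.94, or 1.92-fold. The direction was the same on each of the 2 arrays in all 4 comparisons.

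Of the 7 features, 6 exceeded 1.5-fold with PACAP38 in sham at 6 h, against 3.98% of all features, and Omp did not. With normexp the count was 4, without Eomes (1.14-fold) and the first Doc2g probe (1.48-fold). Tbx21 and Doc2g gave the highest values after S100a5 among those with a measured fold. Tbx21 had log2 ratios of 2.73 and 1.99 on the 2 arrays, with a mean of 2.36 (5.13-fold), the 2nd highest of all ranked features. Its processed signals were 30.2 with saline and 201 with PACAP38 on one array and 118 and 466 on the other, of which the saline signal of 30.2 was not well above background. With normexp the log2 ratio of Tbx21 was 0.97 (1.95-fold). The first Doc2g probe gave log2 ratios of 2.34 and 0.93 (mean 1.63) and the second gave 1.96 and 0.64 (mean 1.30, 2.46-fold), so both probes of this gene pointed the same way. These were the 3rd and 6th highest ratios. Cdhr1, which was well above background in every channel, gave 1.14 and 0.82 (mean 0.98, 1.98-fold), the 42nd highest.

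Eomes was not well above background with saline on either sham 6 h array, and with PACAP38 on 1 of 2. Its signals were 7.01 and 36.0 on one array and 9.19 and 14.4 on the other, and only a limit can be given, of at least 1.11-fold more with PACAP38. Such limits were taken from normalized signals, with the dim group set no lower than the lowest signal well above background on the same array. Omp gave log2 ratios of 0.84 and −0.86, with opposite signs on the 2 arrays.

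In PMCAO at 6 h, 4 of the 7 features exceeded 1.5-fold, against 5.41% of all features. These were S100a5, Eomes, the second Doc2g probe and Cdhr1, and with normexp S100a5 alone (1 of 7). Cdhr1 had log2 ratios of 0.69 and 0.75 (mean 0.72, 1.65-fold), a smaller distance between arrays than in sham. Eomes had 1.39 and 0.68, but on neither array were both of its channels well above background, and no fold is given for it. The second Doc2g probe lay at the threshold, with 0.56 and 0.64 (1.51-fold), and the first lay under it, with 0.32 and 0.58 (1.36-fold). Tbx21 was also under it, at 0.43 and 0.69 (1.48-fold). Omp, which was well above background in each channel here, gave 0.17 and 0.58 (1.30-fold). All 7 features had a positive ratio on both arrays, including the dim Eomes and Omp with its 0.17. The share of all features positive on both arrays is not given here. The counts past 1.5-fold separate features that lie close to each other.

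In sham at 24 h, S100a5 was alone past 1.5-fold upward (1 of 7, against 1.75% of all features). Omp was past 0.75-fold downward (1 of 7, against 3.87%), but it was not well above background in any channel. Cdhr1 had log2 ratios of 0.15 and 0.15, and the means of Eomes, Tbx21 and the 2 Doc2g probes were 0.14, 0.02, 0.18 and 0.07. For those 4 features the 2 arrays had opposite signs.

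**Figure D2:**
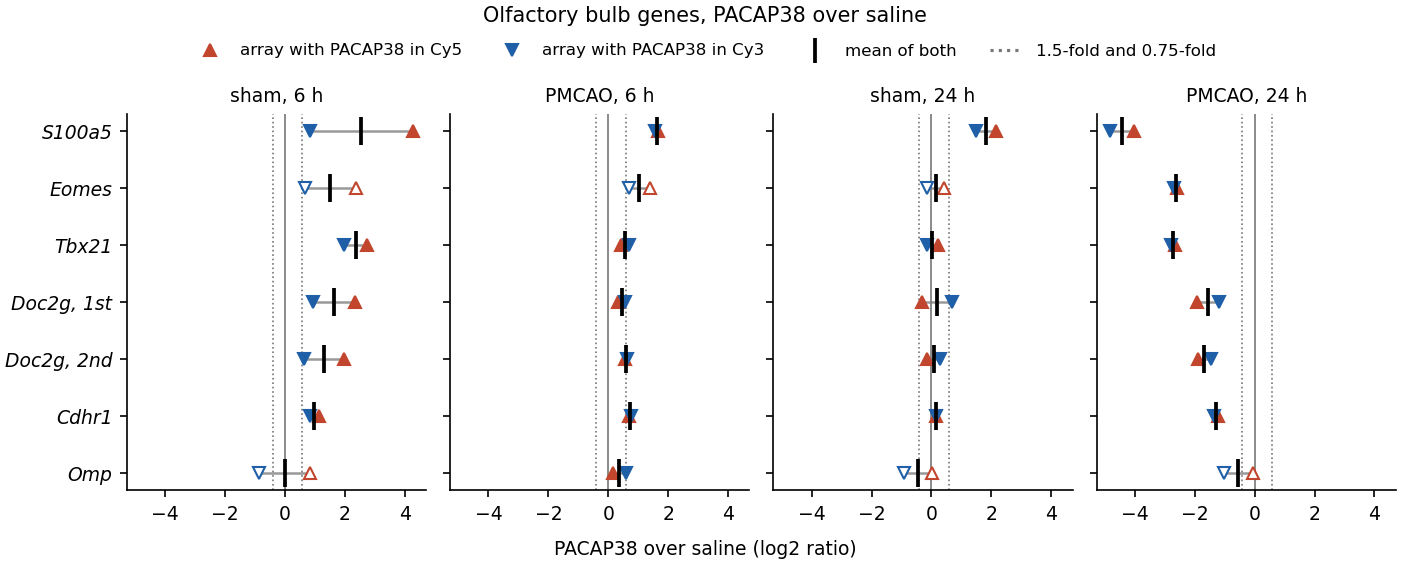
Log2 ratio of PACAP38 over saline for the 7 features (rows) in the 4 comparisons (panels), with triangles for the 2 dye-swapped arrays, a bar for their mean and dotted lines at 1.5-fold and 0.75-fold; open triangles mark features well above background on both arrays in neither group. In PMCAO at 24 h the features other than Omp lie between −4.42 and −1.30, and in sham at 24 h S100a5 lies at 1.82 while the others are nearer 0.

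In PMCAO at 24 h all 7 features were under 0.75-fold with PACAP38, against 8.18% of all features. The count includes Omp, for which neither group had a signal well above background and no fold is given. Tbx21 had signals of 410 and 378 with saline and of 64.8 and 54.5 with PACAP38. Its log2 ratios were −2.66 and −2.79, with a mean of −2.73 (0.151-fold, and 0.257-fold with normexp), the 16th lowest of the ranked features. Eomes had signals of 83.9 and 89.4 with saline and of 13.8 and 13.9 with PACAP38. The PACAP38 signals were not well above background, so that saline was at least 5.20-fold higher. The 2 arrays lay within 0.04 of their mean of −2.64 for this gene, which was −0.91 (0.533-fold) with normexp.

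The first Doc2g probe had signals of 410 and 310 with saline and of 107 and 137 with PACAP38. Its log2 ratios were −1.94 and −1.18 (mean −1.56, 0.340-fold). The second probe had log2 ratios of −1.88 and −1.47 (mean −1.68, 0.313-fold), so the probes differed from each other by less than the arrays of either did. Cdhr1 had signals of 841 and 894 with saline and of 355 and 350 with PACAP38, and log2 ratios of −1.24 and −1.35 (mean −1.30, 0.407-fold). Among the features below the threshold with a measured fold, Cdhr1 had the smallest change and S100a5 the largest.

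The pool that stood apart at 24 h was PMCAO with saline. Levels were compared between pools as log2 signal relative to the 75th percentile of the channel, averaged over both dyes. On this scale S100a5 was at −0.07 ± 0.10 (half-difference of the dyes) in PMCAO with saline at 24 h. It was at −2.06 ± 0.00 in sham with PACAP38, −3.88 ± 0.35 in sham with saline and −4.48 ± 0.30 in PMCAO with PACAP38. The dye ranges of the lower pair, sham with saline and PMCAO with PACAP38, met between −4.23 and −4.18, and the others did not overlap. For Tbx21 the levels were −1.36 in PMCAO with saline and −3.85, −3.88 and −4.07 in the other 3 pools. The 6 features other than Omp were each highest of the 4 pools in PMCAO with saline, and 5 of the 6 were lowest in PMCAO with PACAP38. The exception was the first Doc2g probe, which was lowest in sham with saline. For Tbx21 and the second Doc2g probe, as for S100a5, the dye ranges of PMCAO with PACAP38 and sham with saline overlapped. Eomes was not well above background in PMCAO with PACAP38. The share of all features with these orders is not given here.

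At 6 h the order was different. The 6 features other than Omp were lowest in sham with saline, but the share of all features with this order is not given here. Over all features, PMCAO with saline was also above sham with saline at 6 h, by a median log2 of 0.25. With normexp and Aquantile normalization, this difference lay between 0.01 (Cdhr1) and 0.80 (second Doc2g probe) for the features described here. The highest pool was PMCAO with PACAP38 for 4 of them and sham with PACAP38 for Tbx21 and Cdhr1. The dye ranges of both PACAP38 pools overlapped for Tbx21, Cdhr1 and the first Doc2g probe. Those of both saline pools overlapped for Cdhr1. S100a5 was at −3.78 ± 1.09 in sham with saline, −2.46 ± 0.01 in PMCAO with saline, −1.24 ± 0.64 in sham with PACAP38 and −0.84 ± 0.06 in PMCAO with PACAP38. The dye ranges of the highest pair overlapped. In tissue pools of this kind, fewer cells of a type and less RNA per cell cannot be told apart. How much bulb tissue each pool held was not measured.

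**Figure D3:**
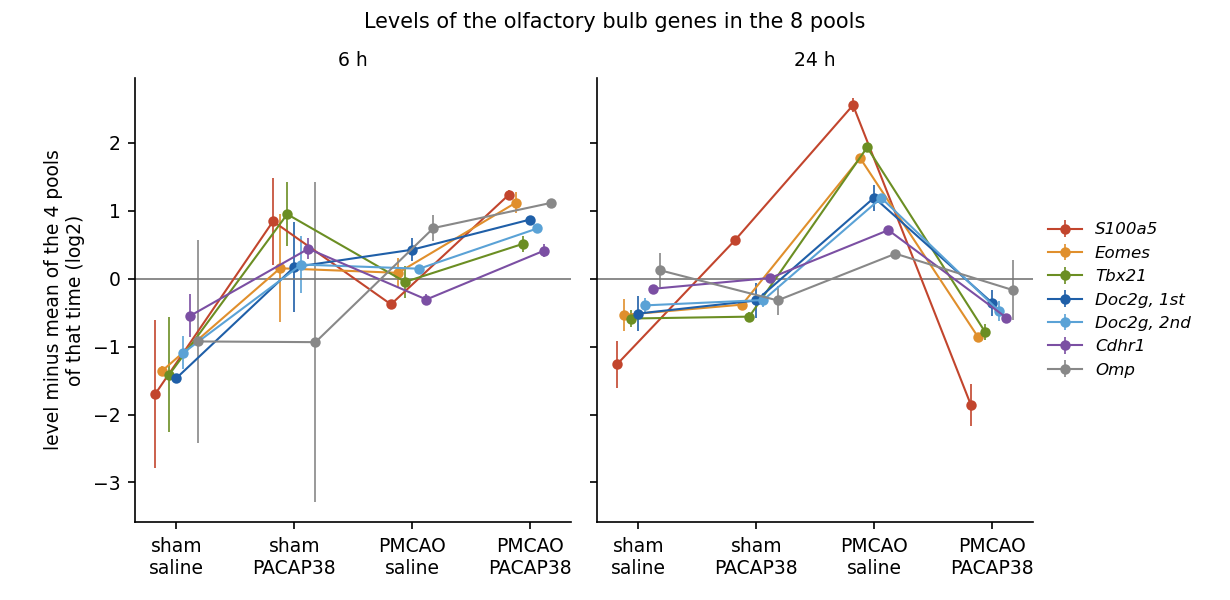
Level of each feature in the 4 pools of each time point, as log2 signal minus the mean of those 4 pools, with points for the mean of both dyes and bars for their half-difference. At 24 h the PMCAO pool with saline is the highest for each feature, and at 6 h the sham pool with saline is the lowest for each feature but Omp.

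PMCAO was then set against sham within one injection. These differences use the same pools as the PACAP38 ratios, so each is tied to the others and is no independent support. With saline at 24 h, 6 of 7 features were over 1.5-fold in PMCAO, against 9.10% of all features. S100a5 differed by a log2 of 4.05 in Cy3 and 3.57 in Cy5 (mean 3.81), the 47th highest of 27760 ranked features. Tbx21 differed by 2.69 and 2.34 (mean 2.52, 5.73-fold) and Eomes by 2.48 and 2.13 (mean 2.31, 4.95-fold), the latter with a sham signal well above background in 1 of 2 dyes. The Doc2g probes differed by means of 1.71 (3.26-fold) and 1.58 (2.99-fold), and Cdhr1 by 0.86 (1.82-fold). With normexp and Aquantile normalization, S100a5 was at 2.84, Tbx21 at 1.58 and Eomes at 0.72. Omp was not well above background in either operation.

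With PACAP38 at 24 h, 3 of 7 features were under 0.75-fold in PMCAO, against 8.46% of all features. S100a5 differed by −2.73 and −2.12 (mean −2.43, 0.186-fold), the 18th lowest of 27436. Cdhr1 differed by −0.52 and −0.64 (mean −0.58, 0.667-fold). Eomes, with PMCAO signals not well above background, was at least 1.27-fold higher in sham. The differences of Tbx21 (−0.22) and of the Doc2g probes (−0.03 and −0.16) were between the thresholds. S100a5 was thus the member whose level in PMCAO with PACAP38 lay furthest under its level in sham with PACAP38.

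At 6 h the same-dye differences were far less repeatable. The median distance of a dye from the mean of both was 0.353 with saline and 0.408 with PACAP38 for features well above background, against 0.0603 and 0.0636 at 24 h. The median over all features was also shifted, to 0.25 with saline and 0.31 with PACAP38, against −0.01 and 0.02 at 24 h. With saline 6 of 7 features were over 1.5-fold, but so were 32.0% of all features. S100a5 differed by 2.40 in Cy3 and 0.24 in Cy5, and Tbx21 by 2.45 and 0.28, so that one dye gave most of either mean. The first Doc2g probe gave 2.11 and 1.68 and the second 1.46 and 1.01, both dyes past the threshold. No limit above 1 could be given for Eomes. With PACAP38, 3 of 7 features were over 1.5-fold, against 31.4%, and 1, Tbx21, was under 0.75-fold, against 16.5%. S100a5 differed by 0.96 in Cy3 and −0.18 in Cy5, Tbx21 by −1.02 and 0.15, Omp by 4.40 and −0.30 and Cdhr1 by −0.08 and 0.03, so the dyes of these features had opposite signs.

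**Figure D4:**
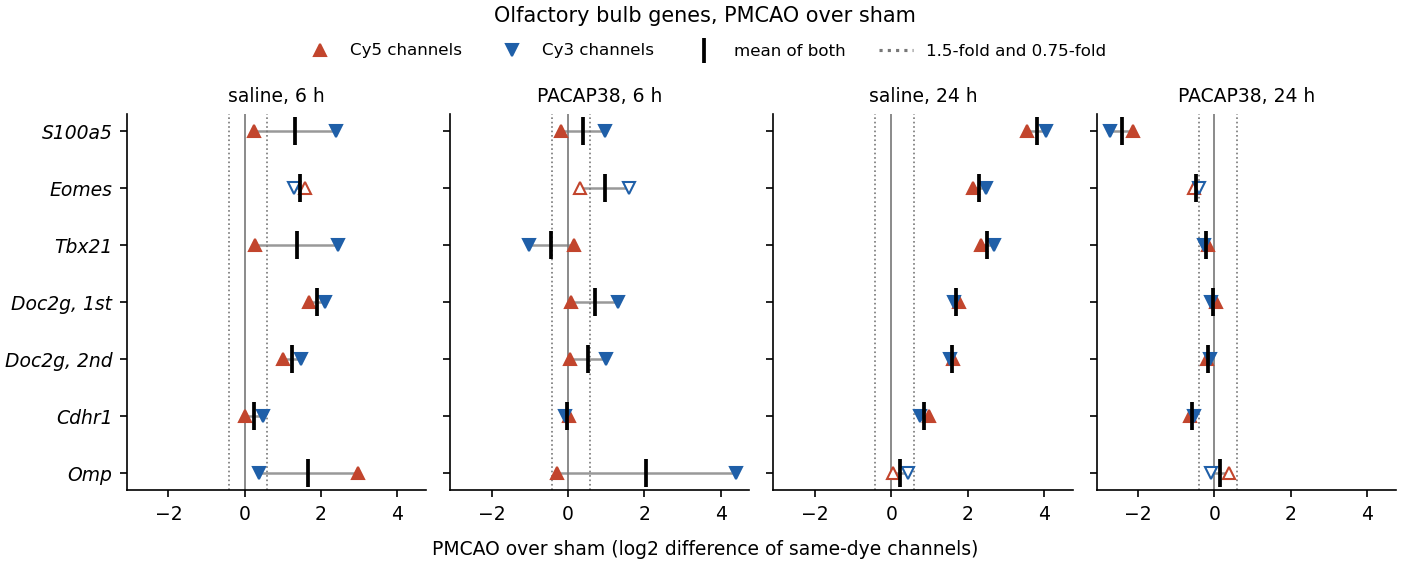
Log2 difference of PMCAO over sham for the 7 features (rows), by injection and time (panels), with triangles for the Cy5 and Cy3 channels, a bar for their mean and dotted lines at 1.5-fold and 0.75-fold; open triangles mark features well above background in both dyes in neither group. At 24 h the dyes lie close together, with S100a5 at 3.81 with saline and −2.43 with PACAP38, while at 6 h they lie far apart for S100a5, Tbx21 and Omp.

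Other genes of the olfactory system were examined with lists of markers for sensory neurons, for mitral and tufted cells, and for periglomerular and granule cells, which hold 39 genes, 36 of them on the array. Many of these genes are also used by other forebrain neurons. With PACAP38 in PMCAO at 24 h, 7 of the 36 were under 0.75-fold, against 8.18% of all features, and 2 were over 1.5-fold. The median log2 ratio was −0.07 against 0.00 over all features. The other listed genes lay between the thresholds. Counts of later lists can be read against the shares of all features printed above for the same comparison and direction, where available.

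Of the periglomerular and granule cell list, 4 of 15 genes were under 0.75-fold, 3 of them on both arrays. Scgn (secretagogin, a calcium-binding protein of bulb interneurons) had log2 ratios of −2.12 and −2.17 on the PMCAO 24 h arrays. Its PACAP38 signals were not well above background, so that saline was at least 1.57-fold higher. Sp8, a transcription factor of those interneurons, had −1.08 and −0.94. Th, the enzyme that starts dopamine synthesis, had −0.84 and −0.73. Of the mitral and tufted list, Nmb (neuromedin B) had −0.43 and −0.57, and the other 9 genes lay between the thresholds. In the sensory neuron list 2 genes were under and 2 over the thresholds. Among them, Rtp1 (0.78 and 1.53) was well above background in 1 of 4 channels and Rtp2 in 0 of 4. Kirrel2, an adhesion molecule of sensory axons, had 0.96 and 1.09. Stoml3, a stomatin-like protein of cilia, was well above background in 1 saline channel alone and was at least 1.14-fold higher with saline.

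The other PACAP38 comparisons had fewer list genes past the thresholds. With PACAP38 in sham at 6 h, 4 of 30 measured genes were over 1.5-fold, against 3.98% of all features, and none under 0.75-fold (median log2 0.15). Sp8 (0.66 and 0.63) and Nmb (0.84 and 0.82) were past the threshold on both arrays. Scgn had 2.24 on one array and −0.02 on the other. With PACAP38 in PMCAO at 6 h, 2 of 35 were over 1.5-fold, a share near the 5.41% of all features. These were Scgn (0.71 and 0.81) and Rtp2, which was not well above background in any channel. Kirrel2 (−0.42 and −1.25) was under 0.75-fold. In sham at 24 h none of the 36 was past either threshold. With saline at 24 h, PMCAO was over 1.5-fold of sham for 4 of 36, against 9.10% of all features, and under 0.75-fold for 5. Scgn (0.91), Sp8 (0.74) and Th (0.69) were higher on that log2 scale, and Tbr1 (−0.68), a transcription factor of mitral cells and of deep cortex, was lower.

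Lymphocyte genes were looked at because Tbx21 and Eomes are also T and natural killer cell factors. Of 20 listed genes, 1 was over 1.5-fold and 1 under 0.75-fold with PACAP38 in PMCAO at 24 h, with a median log2 ratio of 0.03. The lower was Crtam, an activation receptor of these lymphocytes, at −0.77 and −0.91. In sham at 6 h, 2 of 19 were over and 1 was under the thresholds, none on both arrays. In PMCAO at 6 h, 4 of 19 were over 1.5-fold, 2 of them on both arrays, with Crtam at 1.99 and 2.17, and none was under 0.75-fold (median −0.06). In sham at 24 h, 1 of 20 was over and 2 were under. For PMCAO over sham at 6 h, 12 of 19 were over 1.5-fold with saline, against 32.0% of all features. With PACAP38 it was 13 of 19, against 31.4%, and none was under 0.75-fold with either injection. At 24 h, 3 of 20 were over and 7 under with saline, and 2 over and 4 under with PACAP38. The core genes of the T cell receptor complex, Cd3d, Cd3e and Cd3g, were past neither threshold on both arrays in any PACAP38 comparison. Of the other T-box genes, 3 of 15 were under 0.75-fold in PMCAO at 24 h, none of them on both arrays, with a lowest log2 ratio of −0.61. Doc2a and Doc2b, the relatives of Doc2g, were past neither threshold in the 4 PACAP38 comparisons.

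On the S100 list, PACAP38 in PMCAO at 24 h gave 7 of 14 other genes under 0.75-fold and none over 1.5-fold (median log2 −0.46). The 14 include S100pbp, a binding protein of an S100 protein rather than a member of the family, which was at 0.20. S100a9 (−3.12 and −3.03) and S100a8 (−2.77 and −3.06), the calcium-binding proteins of neutrophils and monocytes, had the lowest ratios. S100a11 (mean −0.73) and S100a3 (mean −0.66) were lower by less. In sham at 24 h, where S100a5 was 3.53-fold higher with PACAP38, S100a8 (mean 0.80) and S100a9 (mean 0.61) were also over 1.5-fold and S100a3 was at −0.26. In PMCAO against sham with saline at 24 h, 9 of the 14 were over 1.5-fold, led by S100a8 (6.20) and S100a9 (6.09).

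The acute ischemia list had the direction of these genes with PACAP38 in PMCAO at both times. In sham at 6 h, 2 of 9 measured genes were over 1.5-fold with PACAP38 and none under 0.75-fold (median log2 0.33). In sham at 24 h, 1 of 11 was over and 2 were under the thresholds (median −0.16). In PMCAO at 6 h, 6 of 10 measured genes were over 1.5-fold with PACAP38, 3 of them on both arrays, and none was under 0.75-fold (median log2 0.63). In PMCAO at 24 h all 11 genes on the array were under 0.75-fold with PACAP38 on both arrays. Their log2 ratios were −2.08 (Ccl3, a chemokine of phagocytes) to −0.81 (Ptgs2, inducible cyclooxygenase), with a median of −1.24. Fos, an immediate early gene of active neurons, was at −1.98. The part of this in the ratios of S100a5 and the bulb genes was not tested. Forebrain neuron markers lay the other way, with a median of 0.35 over 10 genes and 1 past 1.5-fold. Cerebellar genes, from the other region left out at dissection, had 1 of 12 over 1.5-fold and 1 under 0.75-fold in that comparison. In PMCAO at 6 h, 5 of the 12 were over 1.5-fold with PACAP38, 4 of them on both arrays. Gabra6, a GABA receptor subunit of cerebellar granule cells, was at 4.74 and 6.69, with saline signals not well above background, so that PACAP38 was at least 16.9-fold higher.

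**Figure D5:**
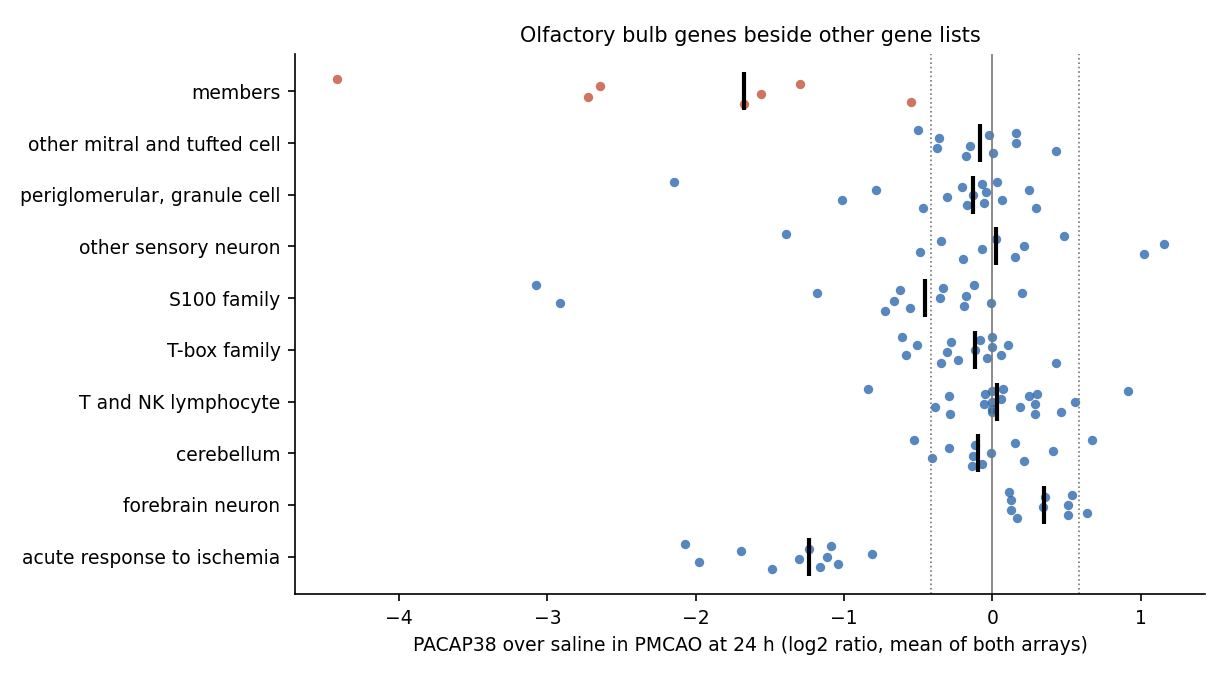
Log2 ratio of PACAP38 over saline in PMCAO at 24 h for the 7 features described here (red) and for the genes of 9 other lists (blue), with a black bar at the median of each and dotted lines at 1.5-fold and 0.75-fold. The acute ischemia list lies wholly under 0.75-fold with a median of −1.24, whereas the bulb lists are centred near 0, with Scgn (−2.14) dim in the PACAP38 channels.

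The genes most like S100a5 were sought over the 8 pools, with levels centred within each time point, among 8175 features that varied by at least 1 on the log2 scale and were well above background in at least 1 pool. The 8 points are not independent, since pools of one operation and time share their arrays and those of one time share a slide. Cdhr1 was the 3rd most alike (Pearson r = 0.95), Eomes the 5th (0.92), Tbx21 the 8th (0.90), and the Doc2g probes were the 9th (0.90) and the 16th (0.83). These 5 features were among the 50 most alike, and Omp was not (0.35, rank 1569). The members were chosen for their ratios on these arrays, so this says how closely they follow S100a5 and nothing more. Eomes passed the filter, which asked for both dyes, only through PMCAO with saline at 24 h. In each other pool it was well above background in 1 dye at most, so its r rests partly on dim values.

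The 10 named features outside the set with the highest r lay between 0.85 and 0.97. They were Gm1533 (0.97), Col6a2 (0.96), Adamts19 (0.93), Foxd3 (0.90), Nppa (0.90), Crabp2 (0.89), Scgn (0.89), D830007B15Rik (0.86), Trdn (0.86) and Vegfa (0.85). Scgn was the one of them on a bulb list. Gm1533 had log2 ratios of PACAP38 over saline of 1.22 and 1.41 at 6 h in sham and PMCAO, in that order. At 24 h it was well above background in neither group in sham, and in PMCAO saline was at least 3.11-fold higher, so where it could be read it had the directions of S100a5. Col6a2, a chain of collagen VI, was at 0.77 and 0.33 at 6 h in sham and PMCAO and at 0.19 and −1.20 at 24 h. Crabp2, a retinoic acid-binding protein, was at least 1.38-fold higher with saline in PMCAO at 24 h, its PACAP38 signals not being well above background. Vegfa, the vascular growth factor induced by low oxygen, was at 0.07, 0.53, −0.01 and −1.19 in the order of Col6a2.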

How the data were processed

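Whole-genome oligo arrays of 2 colours (60-mer probes) were hybridized with pooled RNA, 300 ng from each of 3 mice for 900 ng in a labelling, and the same pools were labelled in both dyes. The labels number the arrays of a comparison as separate pools, whereas the methods state the same RNA, so the 2 arrays were taken as 1 technical replicate and no test was made. Agilent Feature Extraction 9.5.3.1 was named per the labels, and per the file headers it made the 24 h files, with 9.5.1.1 for the 6 h files. It subtracted background and normalized the dyes, and each deposited log10 ratio sets the Cy5 signal of a spot against its Cy3 signal. Mean, background and processed signals are deposited as intensity, beside flags for outliers and for signals well above background. A further deposited table gives for each array the ratio of processed signals, or a score, this ratio with its sign turned, where PACAP38 was in Cy3. Its size differed from the processed signals' ratio by at most 0.005. A second copy of 3 files was not used.

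Log10 ratios were converted to log2, with the sign changed where PACAP38 was in Cy3. Control and outlier spots were left out, and the mean of both arrays was taken. The thresholds were over 1.5-fold and under 0.75-fold, as the study set them. PMCAO over sham was the difference of same-dye log2 processed signals, each relative to the 75th percentile of its channel. A feature not well above background on both arrays of one group gives only a limit. Genes on a list were read from their brightest probe. Named genes were the members, the 10 features most like S100a5, and list genes past a threshold on both arrays, with the best known genes of a list named beside them. The members and lists were chosen with earlier results of these data known. Array symbols were updated through RefSeq for 22951 of 34709 named features. Alternatives were normexp (offset 50) with loess and Aquantile, the deposited table, outlier spots kept, channel medians, each array or dye alone, bright features alone, other thresholds and the mean of all probes of a gene. Python 3.11.15, numpy 2.4.6, pandas 2.3.3, matplotlib 3.10.9, R 4.3.3 and limma 3.58.1 were used, and the scripts were tested on simulated data. The number of arrays limits the precision.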

Additional observations from a re-analysis of the deposited data

Results flagged for a closer look

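In 12 instances over 5 features, a contrast had one sign on all arrays or dyes of one group and the opposite sign in another, and none of these differences was tested. On the log2 scale, the PACAP38 over saline ratio of S100a5 was 6.24 higher in sham than in PMCAO at 24 h, and 6.04 higher in PMCAO at 6 h than in PMCAO at 24 h. Its PMCAO over sham difference at 24 h was 6.24 higher with saline than with PACAP38, which uses the same 4 pools as the first value. For Tbx21 the PACAP38 ratio in PMCAO was 3.29 higher at 6 h than at 24 h, and the PMCAO over sham difference at 24 h was 2.74 higher with saline than with PACAP38. For the first Doc2g probe the PACAP38 ratio in PMCAO was 2.01 higher at 6 h than at 24 h. For the second probe it was 2.27 higher, its PMCAO over sham difference at 24 h was 1.75 higher with saline than with PACAP38, and that with PACAP38 was 0.70 higher at 6 h than at 24 h. The PACAP38 ratio of Cdhr1 (Pcdh21) was 1.45 higher in sham than in PMCAO at 24 h and 2.02 higher in PMCAO at 6 h than at 24 h, and its PMCAO over sham difference at 24 h was 1.45 higher with saline than with PACAP38. Contrasts of 6 h with 24 h also compare 2 slides. For PMCAO over sham with PACAP38, the median log2 over all features was 0.31 at 6 h and 0.02 at 24 h. The second Doc2g probe was at 0.07 in Cy5 at 6 h, under that median, so its sign there depends on the scaling.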

How the results depend on the processing

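Over 80 results, 3 alternative values had the other sign from a main value past a threshold, and 66 others differed by more than the technical spread or by over 1.5 times in a count. Counted with values between the thresholds, 17 log2 values of 13 results had the other sign, 12 of them with 1 array or dye left out. With normexp and loess, which shrinks ratios of dim features, the log2 ratio of S100a5 was 0.77 (PMCAO, 6 h), 1.14 (sham, 24 h) and −3.26 (PMCAO, 24 h), and with Aquantile its PMCAO over sham difference at 24 h was 2.84 with saline and −1.56 with PACAP38. With normexp, 1 feature was over 1.5-fold with PACAP38 in PMCAO at 6 h and none under 0.75-fold in sham at 24 h, and 1 was over 1.5-fold for PMCAO over sham at 6 h with saline and 0 with PACAP38. The other olfactory genes past the thresholds with normexp were 1 up in sham at 6 h, 0 up and 0 down in PMCAO at 6 h, and 1 up and 4 down in PMCAO at 24 h. With features well above background alone, 0 members were down in sham at 24 h, and 1 other olfactory gene was up in PMCAO at 6 h and 1 at 24 h. With 1.5-fold either way, 0 members were down in sham at 24 h, 0 for PMCAO over sham with PACAP38 at 6 h and 1 at 24 h, and 4 other olfactory genes were down in PMCAO at 24 h. With each array past the threshold, 0 members were down in sham at 24 h, and 2 other olfactory genes were up in sham and 1 in PMCAO at 6 h. With the mean of all probes of a gene, 1 other olfactory gene was down in sham at 24 h.

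With the array or dye numbered 1 or 2 left out, member counts with PACAP38 were 0 to 1 down in sham at 6 h, 1 to 2 up and 0 to 1 down in sham at 24 h, and for PMCAO over sham with PACAP38 at 6 h 0 to 5 up and 0 to 1 down. The other olfactory genes were 2 to 6 up and 2 to 4 down in PMCAO at 6 h, and 0 to 2 up and 3 to 3 down in sham at 24 h. Of values past a threshold, the sign turned without replicate 2 for Omp in sham at 24 h (log2 ratio −0.91 to 0.0020), and for PMCAO over sham with PACAP38 at 6 h for Tbx21 (−1.02 to 0.15) and Omp (−0.30 to 4.40). Of values between the thresholds, it turned with 1 array left out for Eomes (−0.14), Tbx21 (−0.16) and both Doc2g probes (−0.33 and −0.15) in sham at 24 h, Omp (0.84) in sham at 6 h, S100a5 (−0.18) and Cdhr1 (0.03) for PMCAO over sham with PACAP38 at 6 h, and the first Doc2g probe (0.03) and Omp (−0.08) for the same at 24 h. The causes were not tested. Normexp was run with an offset of 50 alone, and it also used other signal and background measures than the main values. Signals of Omp and Eomes near background limit what can be said of these genes, and 1 pool a group limits the rest. PACAP38 and saline were paired on each array, and PMCAO and sham were matched by dye. With 1 pool a group, no paired test was possible.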
